A study of Mus musculus with 97 samples.

Results

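The subject is the set of genes that encode the proteins of the cytosolic ribosome, followed in the hearts and jejuna of mice given nonsteroidal anti-inflammatory drugs with or without extra tryptophan. Members were taken by name: rows of the deposited gene table whose symbol has the form of a 60S (Rpl) or 40S (Rps) subunit gene, plus Rplp0, Rplp1, Rplp2 and Rpsa, with names marked as pseudogenes left out. The rule used no measured value and found 89 of the 51368 genes in the table, 53 of the large and 36 of the small subunit. Of these, 77 are the standard subunit genes (46 of the 60S and 31 of the 40S subunit), and 12 are paralogues or gene copies whose names also fit the pattern, 6 of them annotated as pseudogenes.

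All animals were C57BL/6 mice of 11 weeks at dissection, each library came from its own animal, and the drugs were mixed into the chow for 3 weeks. In hearts, experiment 1 set naproxen (1610 ppm) against plain chow in males and naproxen (1323 ppm) against plain chow in females, with 5 libraries per group and no injections. In hearts of females, experiment 2 set naproxen with tryptophan (8 libraries) and naproxen alone (7) against controls (8), and experiment 3 set tryptophan (8) against controls (8). In jejuna of females, experiment 4 set naproxen with tryptophan (7), naproxen (7), celecoxib at 550 ppm (8) and tryptophan (8) against controls (8). Naproxen was at 1323 ppm in every naproxen group of experiments 2 and 4. Tryptophan was given as daily injections of 50 mg/kg in the last week, and every other animal of experiments 2 to 4 received the buffer alone, controls included. Naproxen inhibits both cyclooxygenases, and celecoxib is selective for cyclooxygenase-2.

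The 59 heart libraries were made from poly-A RNA and held 26.3M to 76.4M estimated counts. The 38 jejunum libraries were made by ribosomal RNA depletion, because the RNA was less intact, and held 10.1M to 28.5M. Levels in the 2 tissues are therefore given side by side and not compared. The tissues carried their own markers: 7 cardiomyocyte genes (Myh6, Tnnt2 and others) summed to 37862 to 54883 CPM (counts scaled to the same total in each library) in control hearts of experiment 2, against 17.9 to 36.7 CPM in control jejuna. In whole tissue, fewer cells of a type and less RNA per cell cannot be told apart.

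Each ribosome carries 1 copy of nearly every one of these proteins, and cells make them in matched amounts. Their mRNAs begin with a C followed by an unbroken run of pyrimidines, the terminal oligopyrimidine motif, through which LARP1 and the growth kinase mTORC1 set how strongly they are translated. In the heart the set is known for rising with hypertrophic growth, and in the intestine for high levels in the dividing cells of the crypts.

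The start-site windows that follow are shown because this motif is the sequence feature for which the set is known. RefSeq entries of the GRCm38.p6 build were found for 64 of the 89 members, and each window covers 10 bases before to 20 bases after an annotated start, on the strand of the gene. Capitals mark the longest unbroken run of C and T, wherever in the window it starts. Numbered from the annotated start, the runs of Rps6, Rplp2 and Rps27 begin at bases -1, -5 and -2 and span the start. Those of Rpl12 and Rpl22l1 begin at base 2, that of Rps2 at base 5 and that of Rpl3l at base 10, all after the start. Rps6 (chr4:86857348-86857377, minus strand) is the 40S protein phosphorylated by S6 kinase, and Rplp2 (chr7:141447641-141447670, plus) is a stalk protein. Rps27 (chr3:90213629-90213658, minus) and Rpl12 (chr2:32961702-32961731, plus) share sequence with copies described further on. Rps2 (chr17:24720053-24720082, plus) belongs to the 40S subunit, Rpl22l1 (chr3:28805498-28805527, plus) is the paralogue of Rpl22, and Rpl3l (chr17:24727816-24727845, plus) is the striated-muscle paralogue of Rpl3.
Rps6: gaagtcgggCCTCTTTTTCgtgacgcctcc
Rplp2: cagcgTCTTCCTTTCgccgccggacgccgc
Rps27: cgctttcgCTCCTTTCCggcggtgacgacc
Rpl12: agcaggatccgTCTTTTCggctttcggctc
Rps2: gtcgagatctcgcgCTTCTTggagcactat
Rpl22l1: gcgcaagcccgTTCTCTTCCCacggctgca
Rpl3l: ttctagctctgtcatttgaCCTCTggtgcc

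A run of at least 6 pyrimidines lay in 37 of the 67 windows of 57 standard subunit genes (55.2%), against 28.7% of the 32851 promoter windows of all genes. The letters CTTTC, themselves part of a run of C and T, stood on the gene's strand in 20.9% of the standard members' windows, against 3.74% of all windows. On the opposite strand the same letters were in 4.48% of the members' windows, against 3.65% of all windows. Of the 9 windows of paralogues, 4 held a run of 6 (44.4%), Rpl22l1 among them. The window of Rpl3l shown above had a longest run of 5, and a further window of Rpl3l had a longest run of 4. These counts take a run at any place in the window, so they do not count the terminal motif itself. A match describes these letters and is neither a site in use nor a cause.

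Levels were compared between genes as CPM per kilobase of the principal transcript. The standard members had a median level of 84.7 CPM per kb in control female hearts of experiment 1, 184 in those of experiment 2 and 221 in those of experiment 3. Within each of these sets the level ranged widely. Rps4x, the X-linked 40S protein, was highest in experiment 1 at 306 CPM per kb. Rps2, at the mRNA entry channel of the 40S subunit, was highest in experiment 2 at 417, and Rpl9 was highest in experiment 3 at 525. In control jejuna the median was 399 CPM per kb, with Rpl41, the smallest ribosomal protein, at 1679 and Rps12 at 1592. Rpl12, a protein at the base of the 60S stalk, was the lowest standard member in all 4 sets of controls, at 4.53, 4.83, 8.80 and 33.2 CPM per kb. The pseudogene Gm10275, which shares part of its sequence and is described below, had more counts than Rpl12 in each of these sets. The part of shared reads in the level of Rpl12 was not tested.

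The paralogues ranged from abundant to undetected. Rpl3l averaged 131 ± 21.5 CPM in control hearts of experiment 2 (SD, n = 8) and 0.00431 ± 0.0122 CPM in control jejuna (SD, n = 8), where 7 of 8 libraries had none. Rpl3 itself averaged 174 ± 31.2 CPM in those hearts and 753 ± 69.0 CPM in those jejuna. Per kb of transcript, Rpl3l stood at 95.0 against 129 CPM per kb for Rpl3 in the control hearts, so both were abundant there. Rpl22l1 averaged 21.7 ± 8.88 CPM in control hearts of experiment 2 and 96.7 ± 21.4 CPM in control jejuna. Per kb it stood below Rpl22 in the hearts (39.3 against 47.0 CPM per kb) and above it in the jejuna (175 against 77.4 CPM per kb). Rpl39l, abundant in testis, stayed near 0 in both tissues (0.0924 CPM in control female hearts of experiment 1 and 0.0147 CPM in control jejuna). Rpl10l, known from the male germ line, and the copy Rps12l1 were at 0 in every control library.

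**Figure D1:**
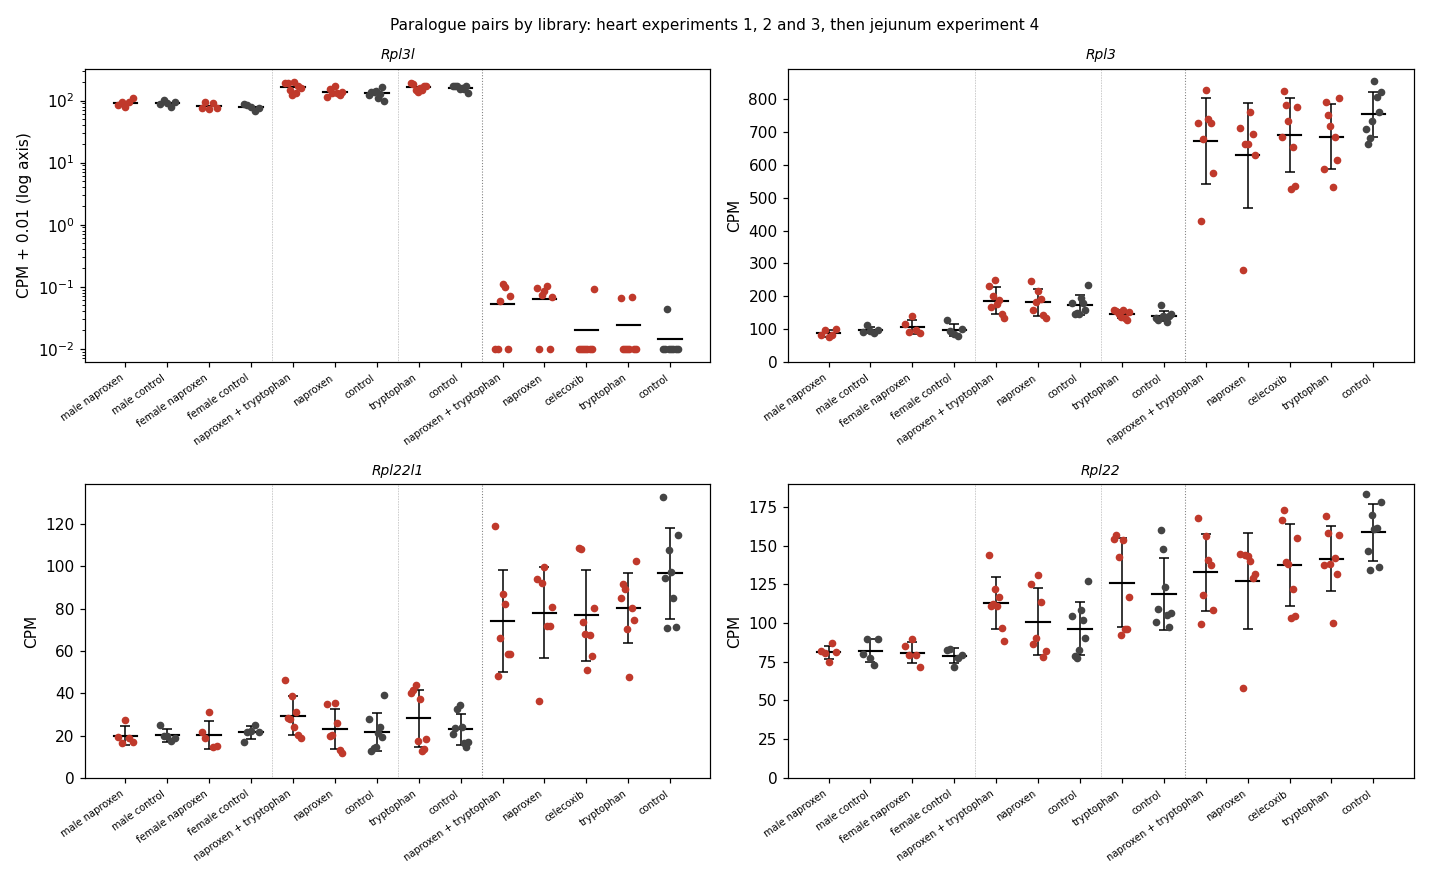
CPM of Rpl3l, Rpl3, Rpl22l1 and Rpl22 in each library (points), by group, with group means (horizontal bars) and SD (vertical bars, except on the log axis of Rpl3l). Rpl3l is at 67.7 CPM or more in every heart library and at 0.10 CPM or less in every jejunum library. The jejunum libraries were made with another kit.

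Of the 89 members, 84 passed the filter on low counts in hearts and 85 in jejuna, and these were tested. Many of them cannot be counted cleanly. Of all 31-base stretches in a member's principal transcript, a median of 47.3% occurred in no other gene. Rpl3l alone was fully unique, and 177 other genes shared at least 40% of the stretches of 49 members. The deposited values are estimates that divide reads between genes. Of the members' values, 94.6% were not whole numbers, against 24.6% of all values in the table. That table holds 51368 genes, including genes without reads, whose values are whole in any case. The 24.6% is therefore no baseline for expressed genes, and the part of shared sequence in this gap was not tested.

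The members' share of all counts ranged from 0.518% to 2.38% in hearts and from 0.995% to 3.60% in jejuna. In experiment 2 it was 1.20% at the lowest, 1.48% at the median and 1.96% at the highest with naproxen and tryptophan, 1.02%, 1.39% and 2.13% with naproxen, and 1.09%, 1.23% and 1.89% in controls. The 3 groups overlapped, and 1 control library stood above the other 7. In experiment 1 the share averaged 0.654 ± 0.0887% in naproxen males and 0.792 ± 0.0884% in control males, and 0.814 ± 0.127% in naproxen females and 0.747 ± 0.185% in control females (SD, n = 5 each). Tryptophan hearts of experiment 3 averaged 1.67 ± 0.437% and their controls 1.52 ± 0.426% (SD, n = 8 each). In both of these experiments, too, the libraries of the groups overlapped.

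In jejuna, every treated group averaged below the controls: 2.59 ± 0.793% with naproxen and tryptophan (n = 7), 2.47 ± 0.742% with naproxen (n = 7), 2.69 ± 0.511% with celecoxib (n = 8) and 2.70 ± 0.573% with tryptophan (n = 8), against 3.03 ± 0.280% in controls (SD, n = 8). The 4 treated groups share these controls. Replicate 7 of naproxen with tryptophan (1.09%) and replicate 7 of naproxen (0.995%) were the lowest of all jejuna, with the next at 1.86%. Both were of dissection batch 1, and mitochondrial genes took 12.0% and 12.1% of their counts, against a median of 5.66% in controls. Replicate 6 of naproxen, of the same batch, had the highest mitochondrial share of all jejuna (12.5%) beside a member share of 2.598%. The main jejunum results are given with both low libraries and without them, the second being a setting chosen after the data were seen. Both were picked by member share, the value studied here. The check for outlying libraries described at the end flagged neither within its group. The part of RNA quality was not tested.

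**Figure D2:**
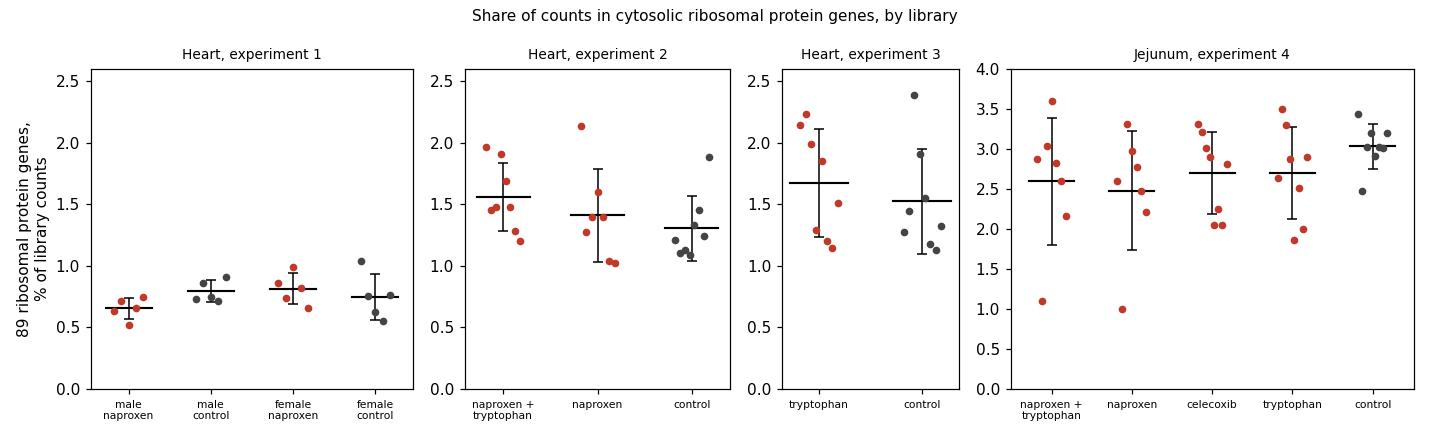
Share of each library's counts that fell in the 89 ribosomal protein genes (percent, points), by group, with mean (horizontal bar) and SD (vertical bar). Groups overlap within every experiment, and 1 library each of naproxen with tryptophan and of naproxen lies near 1% in the jejunum.

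Naproxen with tryptophan gave one-sided differences in hearts, with no member past the threshold of the main test (edgeR's quasi-likelihood test, Benjamini-Hochberg adjusted p under 0.05 over all 16070 genes). All 84 members had a positive log2 fold change against controls, with a median of 0.36, while the median of all tested genes was -0.00. The 46 standard 60S members had a median of 0.35 and the 31 standard 40S members 0.37. None of the 84 was called, where 0.28% of all genes were. At an unadjusted p under 0.05, 41 members stood out, all higher, where 17.2% of all genes did. DESeq2 called 2 members, Rps2 and Rpl12, and 2.88% of all genes.

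Rps2 had the smallest p. It measured 495 CPM at the lowest, 580.4 at the median and 715 at the highest in hearts given naproxen with tryptophan, against 402, 456 and 527 CPM in controls. All but 1 of the 8 treated libraries lay above every control. Its log2 fold change was 0.38 with a standard error of 0.10 (edgeR adjusted p = 0.094, DESeq2 adjusted p = 0.022). Only 22.8% of the 31-base stretches of Rps2 occur in no other gene, so its level is uncertain. Rpl3l, which shares none, measured 124, 167 and 199.7 CPM (lowest, median, highest) with naproxen and tryptophan and 96.7, 133 and 167 CPM in controls. Of its 8 treated libraries 4 lay above every control, and its log2 fold change was 0.34 ± 0.11 (SE, edgeR adjusted p = 0.140).

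The 3 stalk proteins, which recruit elongation factors to the ribosome, had like differences. Rplp0, the anchor of the stalk, averaged 667 ± 135 CPM with naproxen and tryptophan and 504 ± 91.7 CPM in controls (SD, n = 8 each), a log2 fold change of 0.40 (edgeR adjusted p = 0.202). Rplp1 and Rplp2 had log2 fold changes of 0.42 and 0.36. Rpsa, which lies near the mRNA exit of the 40S subunit, and Rps6 had 0.39 and 0.33. Of the paralogue pairs, Rpl3 had 0.11 beside the 0.34 of Rpl3l, and Rpl22 had 0.23 beside 0.44 for Rpl22l1. The differences within these pairs were not tested.

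Against naproxen alone, the combination again had 84 of 84 positive log2 fold changes, with a median of 0.26 (all tested genes -0.01). Both comparisons use the same combination libraries, so they are not independent. edgeR called none of the 84 members and 0.0933% of all genes, and at an unadjusted p under 0.05 it had 4 members, all higher, and 9.95% of all genes. Rps2 (0.28, adjusted p = 0.429), Rpl3l (0.27, 0.455) and Rpl29, a surface protein of the 60S subunit (0.22, 0.455), had the smallest p. Naproxen alone against the same controls had a median of 0.10 over the members and 0.01 over all genes, with 83 of 84 positive. None was called, as were 0% of all genes, and at an unadjusted p under 0.05 there were 0 members and 3.55% of all genes. Leaving out naproxen replicate 1 or replicate 4 turned that median to -0.02 or -0.01. Rplp2, Rpl23 and Rpl12 had the smallest p there, with log2 fold changes of 0.18, 0.11 and 0.17 (edgeR adjusted p = 1.0).

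Transcript length moved with these values. Among genes that are not members, the median log2 fold change of the combination against controls was 0.26 for 789 genes with a principal transcript under 1 kb, 0.10 at 1 to 2 kb, -0.00 at 2 to 4 kb and -0.08 above 4 kb. The members had 0.37 under 1 kb (53 genes) and 0.29 at 1 to 2 kb (22 genes). In the same comparison 3 of 3 tested neutrophil markers were positive with a median of 1.36. The list (S100a8, S100a9, Retnlg and Ly6g) summed to 0.240 to 9.36 CPM with naproxen and tryptophan, where Ly6g was at 0 throughout, to 4.07 to 15.0 CPM with naproxen and to 0.375 to 2.64 CPM in controls. All 5 erythroid markers were positive with a median of 0.38, at a summed 1843 to 14867 CPM with the combination and 1652 to 9242 CPM in controls. The part of length and of these cells in the members' values was not tested.

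In experiment 1, the members leaned opposite ways in the sexes, whose chow also held different doses of naproxen (1610 ppm in males, 1323 ppm in females), so that dose cannot be told apart from sex. In male hearts 78 of 84 had a negative log2 fold change with naproxen, with a median of -0.13 (all tested genes -0.01). In female hearts 68 of 84 had a positive one, with a median of 0.12 (all tested genes -0.02). The male effect minus the female effect had a median of -0.24 over the members and 0.01 over all genes, negative in 78 of 84. No member passed edgeR's test in males, females or the difference, where 0%, 0.0132% and 0% of all genes did. At an unadjusted p under 0.05 there were 3 members in males, 2 in females and 3 in the difference, where 7.68%, 7.14% and 5.05% of all genes stood. DESeq2 called only Rpl12, in females (0.356% of all genes called) and in the difference (0.0066%, Rpl12 being the only gene).

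After Rpl12, the smallest p in males belonged to Rpl10, a protein that joins the 60S subunit late in its maturation. It measured 97.1, 136 and 184 CPM (lowest, median, highest) in naproxen males against 169.6, 201 and 211 CPM in control males. The groups overlapped, and the log2 fold change was -0.45 ± 0.19 (SE, edgeR adjusted p = 0.594). Rpl13 followed with -0.29 (adjusted p = 0.649). In females Rps23, a protein of the decoding centre, averaged 103 ± 11.7 CPM with naproxen and 88.9 ± 12.5 CPM in controls (SD, n = 5 each; log2 fold change 0.21, adjusted p = 0.696), and Rpl28 had 0.38 (adjusted p = 0.722). In the difference between the sexes, Rpl17, which lines the exit tunnel, had -0.34 (adjusted p = 0.759).

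Base composition moved with both sexes' values. Over genes that are not members, the median in females went with GC content, from -0.13 for transcripts under 45% GC through -0.05 and 0.03 to 0.10 over 55%. The members had -0.18, 0.04, 0.15 and 0.09 in the same 4 classes. In males the other genes ran the opposite way, 0.08, 0.03, -0.04 and -0.11, while the members had -0.12, -0.10, -0.14 and -0.16. The 4 neutrophil markers summed to 1.93 to 237 CPM in naproxen females, against 1.75 to 13.7 CPM in control females. All 5 erythroid markers were positive with naproxen in both sexes, with a median of 1.11 in males and 2.40 in females. The part of these in the members' values was not tested.

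Rpl12 carried the largest fold changes of experiment 1 and a problem of counting. It lies at chr2:32961559-32965345 on the plus strand of GRCm38, is protein-coding, and had 4.14, 3.97, 4.06, 4.57 and 3.68 CPM in naproxen males against 5.40, 15.4, 36.9, 5.63 and 27.5 CPM in control males. All naproxen males lay below all control males. No other member was free of overlap there, and 3.1% of all genes were. In females the order was the other way, with 5.40, 40.5, 5.17, 47.4 and 45.4 CPM with naproxen against 9.36, 5.08, 3.82, 6.15 and 3.75 CPM in controls. Here 3 naproxen libraries were high and 2 lay within the control range. The log2 fold changes were -2.15 ± 0.64 in males and 2.35 ± 0.63 in females (SE, edgeR adjusted p = 0.409 and 0.401), and the difference was -4.50 (edgeR adjusted p = 0.759, DESeq2 adjusted p = 0.0021).

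Gm10275, a transcribed processed pseudogene at chr10:29698746-29699380 on the minus strand, shares 49.8% of the 31-base stretches of Rpl12. In the 5 libraries with the most Rpl12 it had 17.3 to 46.9 CPM, and in the other 15 it had 50.4 to 92.3 CPM. Summed, the pair had 68.3 ± 8.17 CPM in naproxen males and 74.1 ± 7.94 CPM in control males, and 80.3 ± 13.2 CPM in naproxen females and 69.6 ± 12.9 CPM in control females (SD, n = 5 each). With each member's copies summed into it, a setting chosen after the data were seen, the log2 fold change of Rpl12 was -0.12 in males, 0.21 in females and -0.32 in the difference. Rpl12 held 4.71% to 7.17% of the pair's sum in naproxen males and 7.37% to 48.7% in control males.

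**Figure D3:**
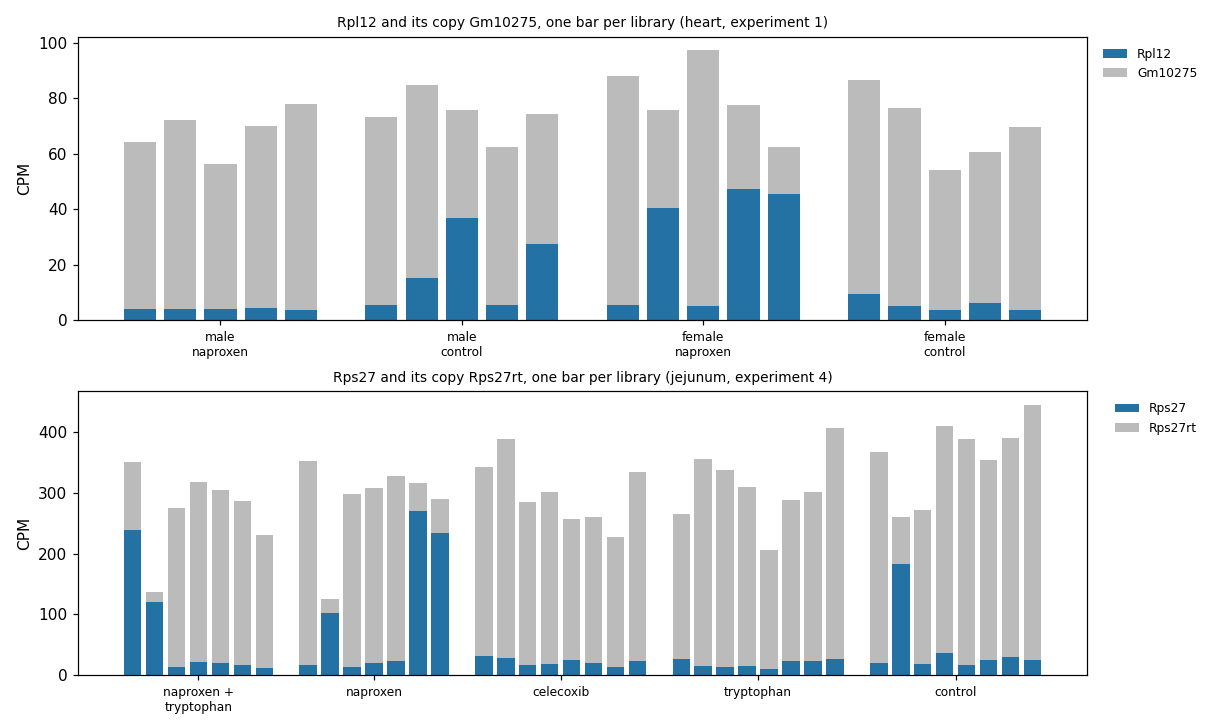
CPM of Rpl12 with its copy Gm10275 in hearts of experiment 1 (top) and of Rps27 with its copy Rps27rt in jejuna (bottom), 1 stacked bar per library. Rpl12 makes up 36.9% to 72.5% of the pair in 5 heart libraries and less in the other 15, and Rps27 makes up 68.1% to 87.9% of the pair in 6 jejunum libraries and at most 10.2% in the other 32.

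Rps27, a small 40S protein, showed the same division in the jejunum. It lies at chr3:90212522-90213651 on the minus strand, and its single-exon copy Rps27rt, at chr9:114982366-114982739 on the minus strand and annotated as protein-coding, shares 98.7% of its 31-base stretches. Rps27 measured 13.7, 23.9 and 270.4 CPM (lowest, median, highest) with naproxen, against 13.1, 21.8 and 31.01 CPM with celecoxib. The high values came from 3 naproxen libraries, and 2 libraries of naproxen with tryptophan and 1 control library were high as well. Its log2 fold change for naproxen over celecoxib was 2.13 ± 0.60 (SE, edgeR adjusted p = 0.120, DESeq2 adjusted p = 0.027). The summed pair averaged 288 ± 74.6 CPM with naproxen and 299 ± 53.2 CPM with celecoxib (SD, n = 7 and 8), and with copies summed the log2 fold change was -0.054. In hearts of experiment 1, Rps27 held on average 95.0% to 99.8% of the pair's sum in the 4 groups.

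Tryptophan alone in hearts (experiment 3) gave a median of 0.10 over the members and 0.00 over all genes, with 80 of 84 positive. edgeR called none, as it called 0% of all genes, and at an unadjusted p under 0.05 it had 1 member, higher, and 2.9% of all genes. That member was Rpl7l1, a paralogue of Rpl7, at 32.2, 36.8 and 40.8 CPM (lowest, median, highest) with tryptophan and 28.7, 34.5 and 38.4 CPM in controls. The ranges overlapped for most libraries, and the log2 fold change was 0.09 (adjusted p = 1.0). Rpl30 and Rps4x followed with 0.10 and 0.09. The members did not keep 1 direction across the 4 dissection batches of 2 against 2 libraries: the median difference was 0.57 in batch 1, -0.40 in batch 2, 0.10 in batch 3 and 0.08 in batch 4.

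**Figure D4:**
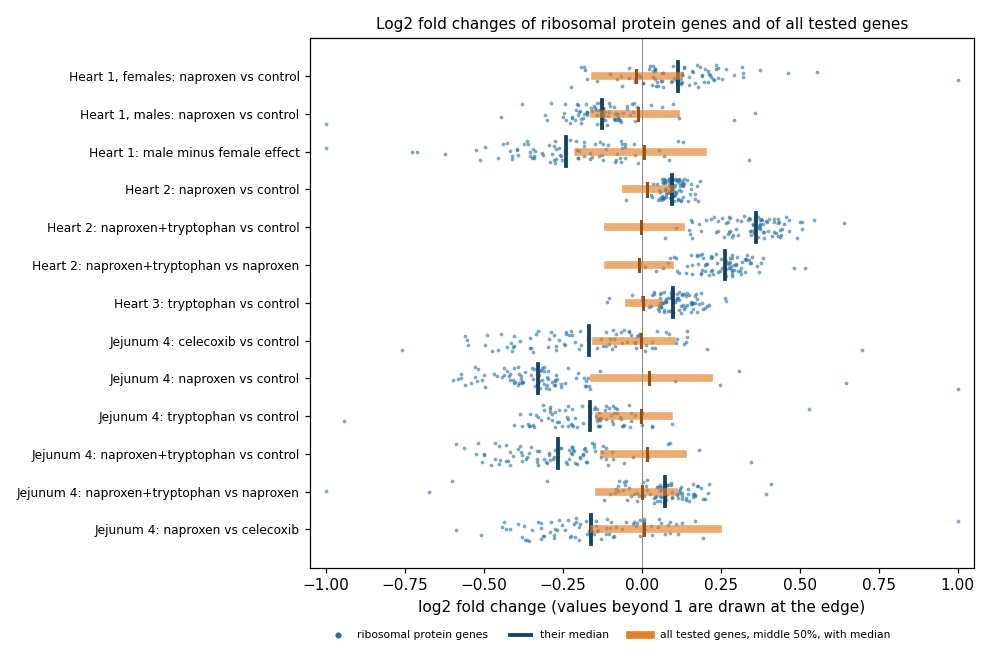
Log2 fold changes of the tested ribosomal protein genes (points) and their median (dark bar) in 13 comparisons, with the middle 50% and median of all tested genes (orange). The members' median is 0.36 for naproxen with tryptophan against control in hearts and -0.33 for naproxen against control in jejuna. The members of a comparison vary together, so their median is drawn as a description.

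In jejuna the members leaned lower with naproxen, again with none past the threshold. The median log2 fold change against controls was -0.33 over the members and 0.02 over all genes, and 80 of 85 were negative. The standard 60S and 40S members both had -0.34, with 1 positive member in each. edgeR called none of the 85 and 0.0116% of all genes. At an unadjusted p under 0.05 there were 35 members, 34 lower and 1 higher (Rps27), where 16% of all genes stood. Rps27 held on average 38.6% of its sum with Rps27rt with naproxen and 14.5% in controls. The summed pair averaged 288 ± 74.6 CPM with naproxen and 361 ± 64.5 CPM in controls (SD, n = 7 and 8). Without both libraries of low member share 80 of 85 were again negative, but the median was -0.20 and 13 members had an unadjusted p under 0.05, close to the 14.2% of all genes that did. Leaving out naproxen replicate 7 alone gave a median of -0.22.

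Rpl10a, which forms the flexible L1 stalk where the empty tRNA leaves, had the smallest p. It measured 107, 312 and 478 CPM (lowest, median, highest) with naproxen against 394, 439.7 and 532 CPM in controls. Of the 7 naproxen libraries 5 lay below every control and 2 within their range. Its log2 fold change was -0.57 ± 0.20 (SE, edgeR adjusted p = 0.214), and -0.39 without both libraries of low share. A pseudogene shares 88.4% of its 31-base stretches. Rps16, which touches the peptidyl tRNA, measured 79.9, 185 and 239.5 CPM with naproxen and 194, 251 and 293 CPM in controls, with 4 of 7 naproxen libraries below every control and a log2 fold change of -0.52 (adjusted p = 0.215), or -0.37 without both low libraries. Of the stalk, Rplp0 had -0.46 and Rplp1 -0.17, while Rplp2 had 0.10 (176 ± 46.2 CPM with naproxen, 166 ± 25.5 CPM in controls, SD, n = 7 and 8). Without both low libraries these were -0.31 for Rplp0, -0.05 for Rplp1 and 0.21 for Rplp2.

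The other treated groups share the controls, and their values stand beside these. Naproxen with tryptophan had a median of -0.27 (all genes 0.02), with 80 of 85 negative. None was called (0% of all genes), and 12 members, all lower, had an unadjusted p under 0.05, as did 5.98% of all genes. Celecoxib had -0.17 (all genes -0.00), with 69 of 85 negative, none called (0% of all genes), and 11 members, 10 of them lower, at an unadjusted p under 0.05, as were 4.37% of all genes. Tryptophan had -0.17 (all genes -0.00), with 79 negative, none called (0% of all genes) and 0 members at an unadjusted p under 0.05, where 2.65% of all genes stood. Without both libraries of low share, naproxen with tryptophan had a median of -0.16 and 9 members at an unadjusted p under 0.05 (6.61% of all genes). Celecoxib then had -0.19 and 36 members (5.45% of all genes), and tryptophan -0.17 and 23 members (3.54% of all genes), so the counts at that threshold move with these libraries even in comparisons that do not contain them. None was called in any of them.

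Rpl9, of the 60S subunit, had log2 fold changes of -0.56 with naproxen and tryptophan, -0.53 with naproxen, -0.56 with celecoxib and -0.38 with tryptophan. Its mean was 578 ± 206, 589 ± 194, 592 ± 230 and 662 ± 212 CPM in those groups, against 840.5 ± 185 CPM in controls (SD, n = 7, 7, 8, 8 and 8). Without both low libraries Rpl9 had -0.40 with naproxen and tryptophan and -0.34 with naproxen. The lowest of the 4 adjusted p was 0.280, and only 6.5% of its 31-base stretches occur in no other gene. Rps27l, the p53-induced paralogue of Rps27, had -0.55 with celecoxib (123 ± 44.7 CPM, against 174 ± 46.8 CPM in controls, SD, n = 8 each, adjusted p = 0.957). Rps19 had the smallest p with tryptophan (-0.36, adjusted p = 0.999), and Rpl17 the smallest with naproxen and tryptophan (-0.59, adjusted p = 0.765, or -0.46 without both low libraries).

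Within dissection batches 1 to 4 the members' median difference from controls was -0.46, -0.05, -0.18 and -0.62 with naproxen and tryptophan and -0.68, -0.07, -0.28 and -0.44 with naproxen. With celecoxib it was 0.16, -0.06, -0.49 and -0.34, and with tryptophan -0.07, -0.01, -0.46 and -0.17. Each batch holds 2 libraries per group, except that naproxen with and without tryptophan had 1 in batch 4. All 4 batches were negative in every treated group but celecoxib, where batch 1 was positive. The batch 1 values rest on the low libraries: with the 1 other library of each group, batch 1 had 0.03 with naproxen and tryptophan and -0.01 with naproxen.

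Against naproxen alone, adding tryptophan had a median of 0.07 over the members (all genes -0.00), with 63 of 85 positive. None was called (0% of all genes), and 2 members had an unadjusted p under 0.05, as did 3.66% of all genes. Leaving out naproxen replicate 7 turned that median to -0.06, and without both low libraries it was 0.03, with 52 of 85 positive. Rps4l, a transcribed processed copy of Rps4x, had the smallest p, with 21.2 ± 4.27 CPM with naproxen and tryptophan and 16.1 ± 3.12 CPM with naproxen (SD, n = 7 each; log2 fold change 0.41, adjusted p = 0.996). Naproxen against celecoxib had a median of -0.16 (all genes 0.01), with 67 of 85 negative. edgeR called none (0% of all genes), 15 members had an unadjusted p under 0.05, 14 of them lower, as did 18.7% of all genes, and DESeq2 called 1, Rps27, and 1.69% of all genes. Rpl23, which binds Mdm2, had -0.44 and Rpl4, of the exit tunnel, -0.32 (adjusted p = 0.157 for both). Without naproxen replicate 6, 3 members passed in this comparison (Rps27, Rpl23 and Rpl4) among 498 genes in all, and without both libraries of low share the median was -0.00, with 43 of 85 negative.

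Short transcripts were lower with naproxen in the jejunum among other genes as well. Their median against controls was -0.27 for 901 genes under 1 kb, -0.08 at 1 to 2 kb, 0.02 at 2 to 4 kb and 0.09 above 4 kb, where the members had -0.34 in both of the shorter classes. Without both low libraries the other genes under 1 kb had -0.18 and the members under 1 kb had -0.20. At 1 to 2 kb the other genes then had -0.04 and the 21 members -0.21. At 2 to 4 kb the other genes had 0.04 and the 5 members -0.15. Cell type markers moved with the group too. The 4 Paneth cell markers (Lyz1, Defa24, Mmp7, Ang4) were all negative with a median of -0.95, at a summed 2066 to 10130 CPM with naproxen against 4177 to 14208 CPM in controls. The 7 enterocyte markers were all negative (median -0.36), the 5 crypt and cycling markers were negative in 4 (median -0.20), and the 5 smooth muscle markers were all positive (median 0.31). Without both low libraries the medians were -0.79 for Paneth cells, -0.38 for enterocytes, -0.10 for crypts and 0.26 for smooth muscle. In that setting further marker lists were lower: adipocytes -2.30 (4 of 4 negative), T cells -0.43 (5 of 5) and goblet cells -0.32 (4 of 4). Others were higher: erythroid 0.98 (5 of 5 positive), B cells 0.81 (5 of 5), fibroblasts 0.69 (3 of 4) and endothelium 0.23 (3 of 4). None of the Paneth, enterocyte, crypt and smooth muscle markers passed the adjusted threshold, nor did any of the further lists without both low libraries. The part of all these markers in the members' values was not tested.

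The members varied together between animals of the same group. As a description, each member's log2 CPM was set against the median of the other members after group means were removed. The median Pearson r was 0.86 in experiment 1 (20 libraries), 0.97 in experiment 2 (23), 0.97 in experiment 3 (16) and 0.88 in experiment 4 (38). An r over 0.5 was found for 60 of 84, 81 of 84, 79 of 84 and 78 of 85 members, and for 26.1%, 16.8%, 14.6% and 9.67% of all other tested genes. All genes of a library share its depth and RNA quality. Only group means were removed, so differences between dissection batches remain in the r values of experiments 3 and 4. The r values of experiment 4 include both jejunum libraries of low member share. Their member medians lay furthest below their group means in that experiment. These r values are not given without both low libraries.

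Some members had a low or negative r, most of them in experiment 1. Rpl3l had an r of -0.20 in experiment 2, but 0.60 in experiment 1 and 0.43 in experiment 3. Rps4l had 0.78, -0.13 and -0.20 in experiments 1 to 3. In experiment 1 Rpl5, which binds 5S rRNA and Mdm2, had -0.69, and Rpl39, Rps27l, Rpl30 and Rps6 lay between -0.19 and -0.16. Rps4x, Rpl7, Rps24, Rps3a2, Rpl12, Rpl10, Rpl22l1 and Rpl10a were also below 0 there, between -0.15 and -0.04. In the jejunum the copies Rps3a3 and Rpl32l had -0.36 and -0.33, Rps27 had -0.26, and Rplp2 had 0.14. Rps27 also had the largest SD within groups of the jejunum, 1.24 on the log2 scale, and Rpl12 that of experiment 1, 1.09. Rpl4 and Rpl7l1 were among the 3 steadiest members in every experiment, with SDs of 0.07 to 0.25.

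**Figure D5:**
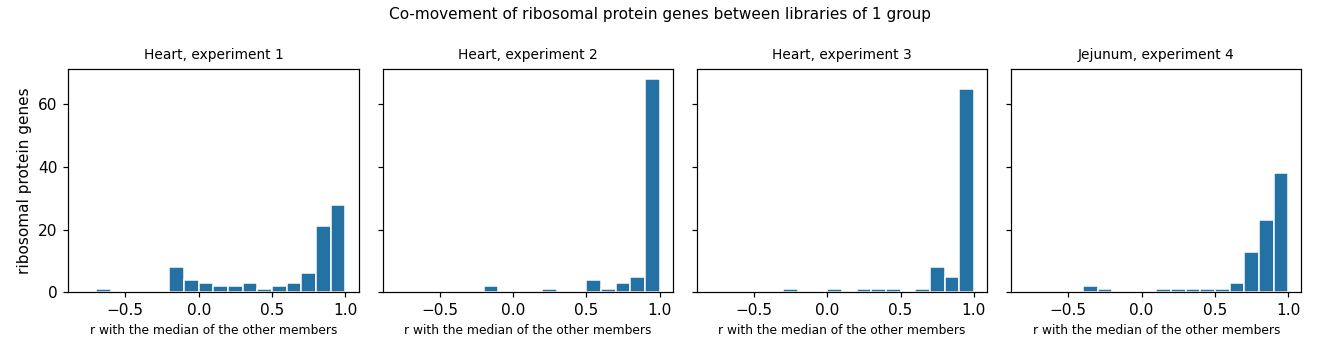
Number of ribosomal protein genes by Pearson r between the gene's log2 CPM and the median of the other members, over libraries with group means removed, in each experiment. Both jejunum libraries of low member share are included. Most members lie near 1 in experiments 2 and 3, with medians of 0.97. The tail below 0 holds Rpl5 and several other members in experiment 1, and Rps3a3, Rpl32l and Rps27 in the jejunum.

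Genes that make or serve the ribosome were followed in lists that are not members. Rack1, a scaffold protein of the 40S subunit, and Fau, whose product is cut to release a 40S protein, lie outside the naming pattern. For naproxen with tryptophan against controls in hearts they had log2 fold changes of 0.40 and 0.43 (edgeR adjusted p = 0.290 and 0.307). For naproxen against controls in jejuna they had -0.52 and -0.31 (edgeR adjusted p = 0.244 and 0.277), or -0.34 and -0.20 without both low libraries, Rack1 first in each. Neither, nor any gene of the lists that follow, passed the adjusted threshold in these 2 comparisons.

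In the hearts, 8 of 9 elongation factors were positive with a median of 0.20, Eif5a (0.20, edgeR adjusted p = 0.108) and Eef1d (0.21, adjusted p = 0.132) having the smallest p. Initiation factors had 21 of 28 positive and a median of 0.06, and 35 ribosome assembly factors had 23 positive and a median of 0.04. The 20 subunits and regulators of RNA polymerases I and III had 13 positive and a median of 0.04. Growth regulators had 7 of 18 positive and a median of -0.02. Among them Eif4ebp1, a target of mTORC1 that holds back initiation, had 0.28 (adjusted p = 0.120). Across all tested genes the median was -0.00.

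In jejuna given naproxen, 7 of 9 elongation factors were negative with a median of -0.20, and Eef1a1, which delivers tRNA to the ribosome and whose mRNA also starts with a pyrimidine run, had -0.43 (adjusted p = 0.226). Initiation factors were negative in 25 of 28 with a median of -0.19, Eif3m having -0.41 (adjusted p = 0.222). Assembly factors had a median of -0.06, with 26 of 35 negative, and the polymerase list -0.01, with 11 of 20 negative. Maf1, the repressor of RNA polymerase III, had -0.29 (adjusted p = 0.168). Without both low libraries, elongation factors had a median of -0.12 (6 of 9 negative), initiation factors -0.12 (22 of 28), assembly factors 0.03 (13 of 35) and the polymerase list 0.04 (9 of 20), so the medians of the assembly and polymerase lists had the opposite sign. Eef1a1 then had -0.31, Eif3m -0.29 and Maf1 -0.27.

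With tryptophan added, the assembly factors had 34 of 35 positive against naproxen alone, with a median of 0.14, and initiation factors 26 of 28, with a median of 0.14, where 49.6% of all genes were positive with a median of -0.00. Without both low libraries these were 33 of 35 with 0.08 and 25 of 28 with 0.12. The members had a median of 0.07 in that comparison, 0.03 without both low libraries and -0.06 without naproxen replicate 7.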

How the data were processed

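The deposited table holds estimated counts per gene for 97 libraries. Per the submitters' processing notes, Salmon 1.9.0, R 4.2.2 and GRCm38 were used, while no source names the annotation release. Here the authors' expected counts were rounded and each experiment was fitted apart with edgeR 4.0.16 (robust quasi-likelihood test, TMM scaling, filterByExpr with a minimum count of 10) in R 4.3.3, with dissection batch as a term in experiments 3 and 4, and p-values adjusted over all tested genes at 0.05. DESeq2 1.42.0 and limma-voom 3.58.1 were alternatives. Levels are CPM on TMM library sizes. The fits were tested on simulated data in which each gene was drawn on its own, while the members vary together. Of 67 genes changed 1.25-fold, 3 were called for naproxen in jejuna and 2 for naproxen in females of experiment 1. In hearts 19 were called for the combination against control and 19 for tryptophan. At 1.5-fold these were 22, 25, 35 and 53 of 67. A gene not called is therefore not shown to be unchanged. The members and lists were chosen with earlier results of these data known. Named genes are the 3 members with the smallest p where none was called, the paralogues and their partners, set single members, and up to 3 genes of a list by smallest p. A few genes that this rule names are not reported here. Transcript overlap was computed on a GENCODE annotation of GRCm38, and start windows were read from RefSeq, GRCm38.p6. The estimated counts carry the error of dividing reads between copies, which no interval here covers. limma-voom called no member in any of the 13 comparisons (0 to 44 genes called), and DESeq2 none in the 9 not named (0 to 94 genes called).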

Additional observations from a re-analysis of the deposited data

Results flagged for a closer look

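Of 93 groups of values examined, 6 had 1 library far from the others, where chance would give about 5%. In control hearts of experiment 2, 1 library had 1.89% of its counts in the members, with the next at 1.45%. Rpl12 had 8.36 CPM in 1 control heart of experiment 2, with the next at 6.44 CPM. Rpl22l1 had 27.5 CPM in 1 naproxen male, with the next at 19.5 CPM. Rps2 had 190.5 CPM in 1 naproxen female of experiment 1, with the next above at 232 CPM. In jejuna, Rpl12 had 57.2 CPM in 1 library of naproxen with tryptophan (next 37.9 CPM), and Rps27 had 184 CPM in 1 control library (next 35.7 CPM), the library in which Rps27rt was lowest among controls.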

How the results depend on the processing

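The members' medians and share ratios moved by less than 1 SD between libraries in all 334 and 203 alternatives, which cover scaling, filters, models, copies and libraries left out, but this SD is wide beside them, and many moved by over 1.5 times. Leaving out 1 library turned the sign of 2 medians, named above, and gave 0.07 (without control replicate 4) to 0.22 (without control replicate 1) in females of experiment 1, -0.19 to -0.08 (without naproxen replicate 8) in males, -0.38 to -0.15 (without male control replicate 7) in the difference, and 0.03 (without tryptophan replicate 1) to 0.20 (without tryptophan replicate 8) for tryptophan in hearts. With library totals in place of TMM the medians were -0.29 in males, -0.42 in the difference and 0.16 for the combination against naproxen in hearts. In the main setting edgeR called no member. DESeq2 called 1 in the sex difference, 1 in females, 2 for naproxen with tryptophan against control in hearts and 1 for naproxen against celecoxib. The settings that follow were fitted with edgeR. A fit of only the 2 groups compared called 1 for naproxen with tryptophan against control in hearts, among 231 genes. With no filter on low counts, members called were 2 for tryptophan in hearts and, in jejuna, 4 for celecoxib, 11 for naproxen, 1 for tryptophan, 2 for naproxen with tryptophan, 1 for the combination against naproxen and 6 for naproxen against celecoxib, among 179, 319, 1182, 253, 476, 333 and 1784 genes called in the same order. The number of genes tested with no filter is not given here, so these counts are not set against a share of all genes. The cause was not tested. Leaving out single libraries gave 0 to 3 members for naproxen against celecoxib and 0 in every other comparison. Rps27 in that comparison turned to -0.054 with copies summed. With a replicate block the medians were 0.36 for the combination in hearts and -0.34 for naproxen in jejuna, with 0 members called. Deviations of libraries with the same replicate number had a median r of 0.00, 0.04, 0.15 and 0.07 in experiments 1 to 4, against 0.00, 0.01, -0.02 and -0.02 for other pairs, and 3 of 10, 8 of 22, 4 of 8 and 31 of 73 pairs were over 0.1. As not every pair was, the numbers were not taken to pair the libraries, though these values cannot exclude pairing. Only group means were removed, and some libraries of the same number shared a dissection batch, as both low jejunum libraries did. The share of other pairs over 0.1 is not given. Sequence shared between copies limits what can be said of single members.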
